A study of Mus musculus with 2 samples.

Results

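The genes described here carry the best known constrictor and dilator signals of the vessel wall. They are *Edn1*, *Ednra* and *Ednrb* of the endothelin system, *Nos3*, *Gucy1a1*, *Gucy1b1* and *Prkg1* of the nitric oxide pathway, the angiotensin receptor gene *Agtr1a*, and *Ptgis* and *Ptger3* of the prostanoid system. They were chosen by symbol, and all 10 were found, each once, among the 32287 features that were counted. Their RNA was followed from the cells that send each signal to the cells that receive it, in the thoracic aortas of 2 wild-type C57BL/6J mice. The mice were of the GFPiSMC genotype, that is *Myh11*-CreERT2 with the mT/mG reporter, in which the smooth muscle promoter of *Myh11* drives an inducible Cre that switches the membrane reporter from tdTomato to eGFP. By the labels, tamoxifen had been given at 1 mg/d for 5 days from the age of 3 weeks, and dissection followed at the age of 12 weeks. The study's methods describe a higher dose and a later start of tamoxifen for its adult mice. Males were used according to the study's methods. Each aorta was digested in the cold and made 1 droplet library from sorted viable single cells, and the deposited cells include many types other than the GFP-marked ones. Both libraries belong to 1 group (n = 2), so that all comparisons are between cell types of the same wall. The p-values measure the spread between these 2 aortas.

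The unit of every level is CPM, the unique molecular identifiers (UMIs, 1 for each captured RNA molecule) of a gene in 1 cell type of 1 aorta, scaled to a total of 1000000 over all genes. The libraries held 47009780 and 30919996 UMIs in 8947 and 6263 cells, of which 6539 and 4614 cells were analysed, at a median of 5671 and 5396.5 UMIs per cell. Clusters were named from markers as smooth muscle cells (SMCs; 2224 and 1613 cells), fibroblasts (1411 and 1021), endothelial cells (738 and 651), lymphocytes (621 and 363), mesothelial cells (275 and 158), myeloid cells (957 and 598), lymphatic endothelial cells (47 and 76) and erythroid cells (29 and 14). A further 224 and 120 cells carried the marker sets of SMCs and fibroblasts together and are called mixed. They entered no test, as did 13 unnamed cells of aorta 1. The 7 SMC markers summed to 42548 and 40499 CPM in SMCs and to between 561 and 2552 CPM in the other named types, and the 7 endothelial markers to 8115 and 8769 CPM in endothelial cells. The share of its own type's level that a marker reached in another type is given below beside the low values of the genes. The barcode sets of both libraries shared 18 barcodes.

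Endothelin-1 is released by endothelium and constricts muscle through the type A receptor, whereas the type B receptor on endothelium clears the peptide and triggers dilators. Nitric oxide made by the endothelial synthase diffuses to muscle and binds a soluble guanylyl cyclase built of an alpha and a beta subunit, and the cyclic GMP it makes activates the kinase that *Prkg1* encodes, which relaxes the cell. Prostacyclin is a dilator made by the synthase of *Ptgis*, the receptor of *Ptger3* binds prostaglandin E2, and angiotensin II constricts vessels through the receptor of *Agtr1a*.

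The sequences before the start of 4 of these genes are shown, 1 for each way in which their RNA was divided. The ligand gene *Edn1* led in endothelial cells, the receptor gene *Ednrb* in myeloid cells, the cyclase subunit gene *Gucy1b1* in SMCs and lymphatic endothelial cells, and the kinase gene *Prkg1* was graded from SMCs to endothelial cells. Each sequence holds the 250 bases before the start of the gene in RefSeq on GRCm38.p6 and reads 5′ to 3′ on the strand of the gene. Of the 10 genes, 7 had an entry in the set of promoter sequences used here (*Nos3*, *Agtr1a* and *Ptgis* had none in it). Capitals mark the motifs CCAAT and GGGCGG, and also AGATAA, on either strand (ATTGG for CCAAT on the other strand).
Edn1, chr13:42301226-42301475, plus strand: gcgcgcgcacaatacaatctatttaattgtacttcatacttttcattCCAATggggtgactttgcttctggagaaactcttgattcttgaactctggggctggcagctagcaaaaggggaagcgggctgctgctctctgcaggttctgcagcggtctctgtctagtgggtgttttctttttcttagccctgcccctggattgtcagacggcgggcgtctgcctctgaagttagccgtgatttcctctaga
Ednrb, chr14:103843702-103843951, minus strand: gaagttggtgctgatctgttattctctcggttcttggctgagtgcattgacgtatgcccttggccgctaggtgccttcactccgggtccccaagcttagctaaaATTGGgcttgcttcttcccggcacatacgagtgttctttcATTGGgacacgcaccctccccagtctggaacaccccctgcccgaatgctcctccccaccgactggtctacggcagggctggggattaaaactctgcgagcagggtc
Gucy1b1, chr3:82074712-82074961, minus strand: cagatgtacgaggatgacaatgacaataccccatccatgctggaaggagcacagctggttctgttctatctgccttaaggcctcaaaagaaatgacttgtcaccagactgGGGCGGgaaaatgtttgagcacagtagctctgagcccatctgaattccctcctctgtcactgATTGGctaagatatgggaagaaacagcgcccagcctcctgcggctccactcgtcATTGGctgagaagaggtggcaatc
Prkg1, chr19:31765034-31765283, minus strand: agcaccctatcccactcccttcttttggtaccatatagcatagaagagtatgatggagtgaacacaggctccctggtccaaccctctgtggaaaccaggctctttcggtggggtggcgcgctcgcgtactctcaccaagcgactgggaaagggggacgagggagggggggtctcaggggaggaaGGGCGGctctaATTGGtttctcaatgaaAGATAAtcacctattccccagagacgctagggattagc
The windows of *Edn1*, *Gucy1b1* and *Prkg1* lie outside the annotated gene, and that of *Ednrb* lies wholly inside the longer gene model, in an intron. CCAAT was found once each before *Edn1* and *Prkg1* and 2 times each before *Ednrb* and *Gucy1b1*. It occurs in 33.9% of 32851 mouse promoters of this length, and GGGCGG, found once each before *Gucy1b1* and *Prkg1*, in 32.7%. A CArG box (in 1.47% of promoters), TGANTCA (6.75%), AGATAA (9.99%) and TATAAA (12.4%) were also searched on both strands, and of these only AGATAA was found, once, before *Prkg1*. *Prkg1* has another start in RefSeq, and the window before it holds GGGCGG once and neither CCAAT nor AGATAA. No match overlapped another. A match is a match of letters and was not tested as a binding site.

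The genes that make the signals came first. *Edn1* (ENSMUSG00000021367, chromosome 13, 42301476 to 42307990, plus strand, GRCm38), which encodes the precursor of endothelin-1, was at 381 and 418 CPM in the endothelial cells of aortas 1 and 2. Fibroblasts held 24.2 and 27.9 CPM, lymphatic endothelial cells 24.0 and 31.5, SMCs 15.6 and 10.9, mesothelial cells 9.37 and 4.96, and lymphocytes 1.34 and 4.44. Endothelial cells were thus far above every other type in both aortas, and fibroblasts were above SMCs in both. The log2 fold change was −4.68 for SMCs against endothelial cells (SE 0.151, adjusted p 2.14e-19, by the quasi-likelihood test of edgeR, adjusted over 14009 genes after Benjamini and Hochberg) and −3.88 for fibroblasts against endothelial cells (SE 0.149, adjusted p 8.87e-18, edgeR). Fibroblasts exceeded SMCs by a small margin that passed the same test (log2 fold change of SMCs against fibroblasts −0.80, adjusted p 0.000206, edgeR). Lymphatic endothelial cells and fibroblasts, neighbours in this order, did not differ beyond their spread (adjusted p 0.862, edgeR). Endothelial cells are few but gave 70.5% ± 2.26 (SD, n = 2) of all *Edn1* UMIs of an aorta.

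The *Edn1* level of SMCs was 4.09% and 2.62% of the endothelial level, and the endothelial markers reached at most 0.982% and 1.22% in SMCs, so that the SMC level lay above that of every marker. In fibroblasts the share was 6.35% and 6.69%, beside at most 5.83% and 6.58% for the markers. The fibroblast signal was uneven. Fibroblasts led by *Pla1a* and *Dact2* held 94.5 and 70.6 CPM of *Edn1*, whereas the other fibroblast subclusters with 20 or more cells in each aorta lay between 0 and 44.4 CPM. Thinned to 1000 UMIs each, 21.5% and 20.1% of endothelial cells had an *Edn1* UMI, against 0% and 0.276% of lymphocytes, which should lack it. At the depth of the libraries the shares were 40.5% and 35.5% of endothelial cells and 0.483% and 1.38% of lymphocytes, at median depths of 3738 and 3039 UMIs in endothelial cells and 4085 and 3895 UMIs in lymphocytes.

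*Nos3* (ENSMUSG00000028978, chromosome 5, 24364810 to 24384474, plus strand) encodes the endothelial nitric oxide synthase. It was at 328 and 287 CPM in endothelial cells and at 78.1 and 122 CPM in lymphatic endothelial cells. SMCs held 1.504 and 2.58 CPM, fibroblasts 1.14 and 1.97, and lymphocytes 1.34 and 2.22. The endothelial classes did not overlap with any other type except that erythroid cells, with 1 UMI in each aorta, are too few to place. Blood endothelial cells exceeded lymphatic endothelial cells by 1.82 on the log2 scale (SE 0.233, adjusted p 1.49e-06, edgeR) and SMCs by more (SMCs against endothelial cells −7.07, SE 0.185, adjusted p 3.71e-21, edgeR). The SMC and fibroblast levels were at most 0.900% of the endothelial level, inside the range of the endothelial markers in these types, so that *Nos3* was not detectable there above the markers. Endothelial cells gave 90.7% ± 3.93 (SD, n = 2) of the *Nos3* UMIs of an aorta. Exons of *Nos3* overlap 294 bases of *Atg9b* on the opposite strand, and whether the counting used strand is not given in the sources used here.

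*Ptgis* (ENSMUSG00000017969, chromosome 2, 167191805 to 167240604, minus strand), the prostacyclin synthase gene, had another pattern: its level was high in nearly every structural cell. SMCs held 901 and 988 CPM, mesothelial cells 637 and 616, endothelial cells 394 and 442, and fibroblasts 269 and 270.1 CPM. Myeloid cells were at 64.4 and 72.6 CPM, lymphocytes at 30.6 and 52.1, and lymphatic endothelial cells at 48.0 and 7.88. The order of SMCs, mesothelial cells, endothelial cells and fibroblasts was the same in both aortas, and each neighbour in it differed in the edgeR test (log2 fold change of mesothelial cells against SMCs −0.82, adjusted p 0.000131, of endothelial against mesothelial cells −0.56, adjusted p 0.00904, and of fibroblasts against endothelial cells −0.57, adjusted p 0.00575). The last of these was no longer past the threshold with cells of 5000 to 25000 UMIs (−0.49, adjusted p 0.101) or with no UMI limits (−0.42, adjusted p 0.104). SMCs gave 72.4% ± 1.46 (SD, n = 2) of the *Ptgis* UMIs, and endothelial cells 6.04% ± 0.514. Blood and lymphatic endothelial cells were far apart (4.38 on the log2 scale, SE 0.385, adjusted p 2.01e-09, edgeR), a value resting on 8 and 2 UMIs in the lymphatic cells. With doublets kept the gap was smaller, as lymphatic endothelial cells held 62.9 and 72.2 CPM of *Ptgis*. They then held 343 and 372 CPM of the SMC marker *Myh11*, against 126 and 78.8 CPM without doublets, and the part of the SMC transcripts was not tested.

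**Figure D1:**
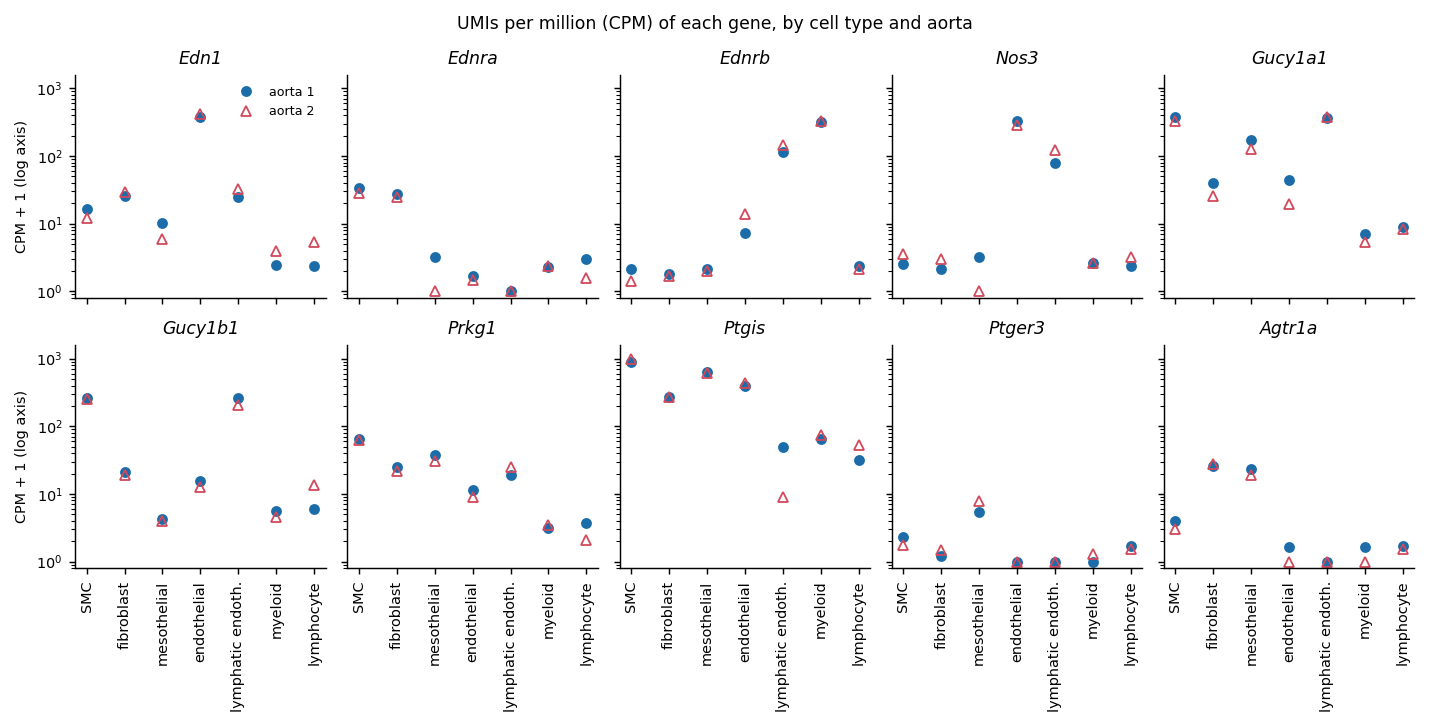
Level of each of the 10 genes (CPM + 1, log axis) in 7 cell types, with aorta 1 as filled circles and aorta 2 as open triangles. *Edn1* and *Nos3* peak in endothelial cells (381 and 418 CPM, 328 and 287 CPM), *Ednrb* in myeloid cells (317 and 325 CPM) and *Ptgis* in SMCs (901 and 988 CPM).

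The receptors of endothelin were on different cells. *Ednra* (ENSMUSG00000031616, chromosome 8, 77663031 to 77724464, minus strand), the gene of the constrictor type A receptor, was at 33.0 and 27.2 CPM in SMCs and at 26.2 and 24.0 CPM in fibroblasts. Mixed cells held 46.6 and 44.3 CPM. In endothelial cells *Ednra* had 2 and 1 UMIs in all, and lymphatic endothelial cells had none. Both aortas thus held *Ednra* in SMCs and fibroblasts and little or none in endothelium. The SMC level was 53.9 times the endothelial level (95% counting interval 18.4 to 262, over both aortas), a difference past the threshold of the edgeR test (adjusted p 5.1e-12). Fibroblasts stood 44.5 times above endothelial cells (15.1 to 217; edgeR adjusted p 1.02e-10) and at least 3.54-fold above lymphatic endothelial cells, with the floor set at 3 UMIs over both aortas. The counting intervals of ratios cover counting error only. SMCs and fibroblasts barely differed: the log2 fold change came to 0.40 (edgeR adjusted p 0.0312, SE 0.156), it was 0.08 with other size factors (adjusted p 0.671), and it lost its call under 7 of 11 alternatives. SMCs gave 62.7% ± 0.570 and fibroblasts 27.6% ± 1.71 (SD, n = 2) of the *Ednra* UMIs.

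*Ednrb* (ENSMUSG00000022122, chromosome 14, 103814625 to 103844402, minus strand) encodes the type B receptor. Myeloid cells held 317 and 325 CPM, lymphatic endothelial cells 114 and 146, and endothelial cells 6.29 and 12.8. SMCs held 1.14 and 0.431 CPM, fibroblasts 0.8001 and 0.658, and lymphocytes 1.34 and 1.11 CPM. Myeloid cells were thus the highest type in both aortas, lymphatic endothelial cells followed, and SMCs were at the level of lymphocytes (adjusted p 0.569, edgeR). The log2 fold change was −1.78 for lymphatic endothelial against myeloid cells (SE 0.230, adjusted p 5.6e-07, edgeR) and −3.60 for endothelial against lymphatic endothelial cells (SE 0.377, adjusted p 4.97e-08, edgeR). Endothelial cells exceeded SMCs (SMCs against endothelial cells −3.18, SE 0.425, adjusted p 4.41e-07, edgeR). Of all *Ednrb* UMIs, 94.7% ± 1.28 (SD, n = 2) came from myeloid cells. Erythroid cells held 17 and 0 UMIs. In aorta 1 that was 26.3% of the myeloid level, while the myeloid markers reached up to 26.5% in the same cells.

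The myeloid clusters with 10 or more cells in each aorta differed widely in *Ednrb*. Cells led by *Alox15* and *Cd5l* held 666 and 657 CPM and cells led by *Cd209f*, *Folr2* and *Cd163* held 379 and 439 CPM. *Cd163* and *Folr2* mark resident macrophages. Cells led by *Lyz1* and *Cd209a* held 14.97 and 9.84 CPM, those led by *S100a9* and *S100a8*, the neutrophil alarmins, 10.5 and 0, those led by *Chil3* 0 and 5.48, and those led by *Mmp12* 0 and 0. The first 2 of these clusters did not overlap with the other 4. Among blood endothelial cells the signal was as narrow. Endothelial cells led by *Gpihbp1* and *Cd36*, which are known from capillaries, held 94.5 and 246 CPM (12 and 24 UMIs), and the other 5 tested subclusters held at most 6.79 CPM. These 37 and 47 cells gave 12 of the 19 and 24 of the 29 *Ednrb* UMIs of blood endothelium.

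*Agtr1a* (ENSMUSG00000049115, chromosome 13, 30336441 to 30382867, plus strand), the angiotensin II type 1a receptor gene, was at 25.1 and 27.0 CPM in fibroblasts and at 22.0 and 17.8 CPM in mesothelial cells. SMCs held 2.95 and 1.98 CPM. Endothelial cells held 2 and 0 UMIs in all. The receptor transcript was thus highest outside the media, and SMCs were below fibroblasts (log2 fold change −3.21, SE 0.237, adjusted p 1.08e-11, edgeR). The SMC level was 11.7% and 7.35% of the fibroblast level, beside at most 6.66% and 6.89% for fibroblast markers in SMCs. Fibroblasts and mesothelial cells did not differ beyond their spread (mesothelial cells against fibroblasts −0.44, adjusted p 0.205, edgeR). Against endothelial cells the ratio was 68.4 for fibroblasts (95% counting interval 18.8 to 567) and 6.74 for SMCs (1.80 to 56.7), and both were past the edgeR threshold (adjusted p 1.91e-10 and 0.00294). Fibroblasts gave 64.7% of the *Agtr1a* UMIs in aorta 1 and 78.8% in aorta 2. The near-identical paralog *Agtr1b* had 25 and 11 UMIs in fibroblasts (2.86 and 1.81 CPM). How reads that fit both genes were counted is not given in the sources used here.

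*Ptger3* (ENSMUSG00000040016, chromosome 3, 157566892 to 157645888, plus strand), which encodes the EP3 receptor of prostaglandin E2, was the rarest of the 10 genes, with 34 and 22 UMIs in all analysed cells. Mesothelial cells held 8 and 7 of them (4.41 and 6.94 CPM), SMCs 22 and 9 (1.32 and 0.775 CPM), fibroblasts 2 and 3, and endothelial cells none. Mesothelial cells had the highest level in both aortas. They stood 15.8 times above fibroblasts (95% counting interval 5.44 to 55.4; edgeR adjusted p 0.000452) and at least 9.35-fold above endothelial cells at the floor of 3 UMIs. SMCs were at least 1.93-fold above endothelial cells (edgeR adjusted p 0.0158) and 3.26 times above fibroblasts (1.26 to 10.7; edgeR adjusted p 0.044). Of 11 alternatives the last call held in 4 and was lost in 5, the aorta as a block among them (adjusted p 0.0526), and in 2 *Ptger3* was too low to be tested. DESeq2 gave an adjusted p of 0.307 for SMCs against endothelial cells, 0.723 for SMCs against fibroblasts and 0.327 for mesothelial cells against fibroblasts. The difference between SMCs and lymphocytes did not pass the test (adjusted p 0.47, edgeR). After thinning to 1000 UMIs a *Ptger3* UMI was left in 3 and 1 SMCs (0.135% and 0.0620%), 1 and 0 mesothelial cells (0.364% and 0%) and 1 and 0 lymphocytes (0.161% and 0%), so that no difference in these shares was detectable at this depth. Without thinning the shares were 2.55% and 3.165% of mesothelial cells, 0.944% and 0.496% of SMCs and 0.322% and 0.275% of lymphocytes. The SMC level was 30.03% and 11.2% of the mesothelial level, beside at most 0.384% and 0.246% for mesothelial markers in SMCs, and 12 of the 22 and 8 of the 9 SMC UMIs came from the subcluster led by *Hoxa7*, which is described below.

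On the responding side stood the cyclase and its kinase. *Gucy1a1* (ENSMUSG00000033910, chromosome 3, 82092427 to 82145789, minus strand) encodes the alpha subunit of the nitric oxide receptor. It was at 378 and 332 CPM in SMCs, 360.2 and 382 in lymphatic endothelial cells, 174 and 127 in mesothelial cells, 38.4 and 24.3 in fibroblasts and 43.7 and 18.6 in endothelial cells. SMCs and lymphatic endothelial cells were the highest types and overlapped, with no difference beyond their spread (adjusted p 0.235, edgeR). Mesothelial cells were below SMCs (log2 fold change −1.44, SE 0.187, adjusted p 3.22e-07) and above fibroblasts by 2.17 (SE 0.215, adjusted p 3.99e-09, edgeR). The gap to fibroblasts was smaller with no UMI limits, where mesothelial cells held 171 and 125 CPM and fibroblasts 78.5 and 60.25 CPM. It was also smaller when the 10 genes took part in the clustering (174 and 129 against 81.85 and 62.1 CPM). Fibroblasts and endothelial cells overlapped, and the log2 fold change between them depended on the setting (0.05, adjusted p 0.913; 1.25, adjusted p 0.000197, with no UMI limits; 1.24, adjusted p 3e-05, when the 10 genes and their pathway took part in the clustering; edgeR). In the last 2 settings mixed cells fell from 344 to 0 and 160. Fibroblasts then held 197 and 150 CPM, and 180 and 174 CPM, of the SMC marker *Myh11*, against 65.95 and 44.9 CPM in the main setting. The part of the SMC transcripts in the result was not tested. SMCs gave 81.6% ± 0.412 (SD, n = 2) of the *Gucy1a1* UMIs.

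*Gucy1b1* (ENSMUSG00000028005, chromosome 3, 82032006 to 82074689, minus strand), the beta subunit gene, lies on the same chromosome and strand. It was at 263 and 252 CPM in SMCs, 258 and 205 in lymphatic endothelial cells, 20.003 and 17.9 in fibroblasts and 14.6 and 11.5 in endothelial cells. Mesothelial cells held only 6 and 3 UMIs (3.31 and 2.97 CPM), which is the level of myeloid cells (adjusted p 0.307, edgeR). The beta subunit thus followed the alpha subunit in SMCs and lymphatic endothelial cells but not in mesothelial cells. The log2 fold change against SMCs was −6.55 for mesothelial cells (SE 0.257, adjusted p 1.48e-17, edgeR) and −0.64 for lymphatic endothelial cells (SE 0.181, adjusted p 0.00787, edgeR). In CPM the lymphatic gap was smaller: SMCs held 1.14 times the lymphatic level over both aortas (95% counting interval 0.934 to 1.415). Fits with other size factors were not run for this pair, so that the part of the scaling in −0.64 was not tested. SMCs exceeded fibroblasts by 3.89 (SE 0.135, adjusted p 8.85e-19) and endothelial cells by 4.49 (SE 0.169, adjusted p 4.73e-18, edgeR). With no UMI limits the gap to fibroblasts was smaller (260 and 251.5 CPM in SMCs against 34.5 and 28.3 CPM). The same held with the 10 genes in the clustering (263 and 251.7 against 36.8 and 29.8 CPM). The levels of fibroblasts (7.61% and 7.11% of the SMC level) and endothelial cells (5.54% and 4.57%) were below the most that an SMC marker reached there (11.2% and 10.4%, and 7.28% and 8.41%).

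Of the UMIs of the pair, *Gucy1b1* took 41.0% in the SMCs of aorta 1 (exact 95% interval 40.1 to 42.0) and 43.2% in those of aorta 2 (42.0 to 44.4), and 41.7% and 34.9% in lymphatic endothelial cells. In mesothelial cells it took 1.87% (0.689 to 4.02) and 2.29% (0.475 to 6.55). The mesothelial intervals lay far below those of both other types. Mesothelial cells fell below fibroblasts in *Gucy1b1* (log2 fold change −2.66, SE 0.396, adjusted p 3.95e-06, edgeR) while they rose above them in *Gucy1a1*. With doublets kept, the *Gucy1b1* difference was −0.21 (adjusted p 0.536, edgeR). In that setting mesothelial cells held 18.1 and 19.6 CPM of *Gucy1b1* and 283 and 211 CPM of the SMC marker *Myh11*, against 63.9 and 61.5 CPM of *Myh11* without doublets, and the part of the SMC transcripts in the result was not tested. At Leiden resolution 2 and with the 10 genes in the clustering, aorta 2 had 160 mesothelial cells in place of 158, which held 12.7 CPM of *Gucy1b1* and 102.5 CPM of *Myh11*, and the log2 fold change against fibroblasts was −1.53 and −2.40 (adjusted p 0.00162 and 1.87e-06, edgeR). In single SMCs thinned to 1000 UMIs, both subunits were found in 7.60% and 5.70% of cells, beside 5.97% and 4.84% that independent detection would give.

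**Figure D2:**
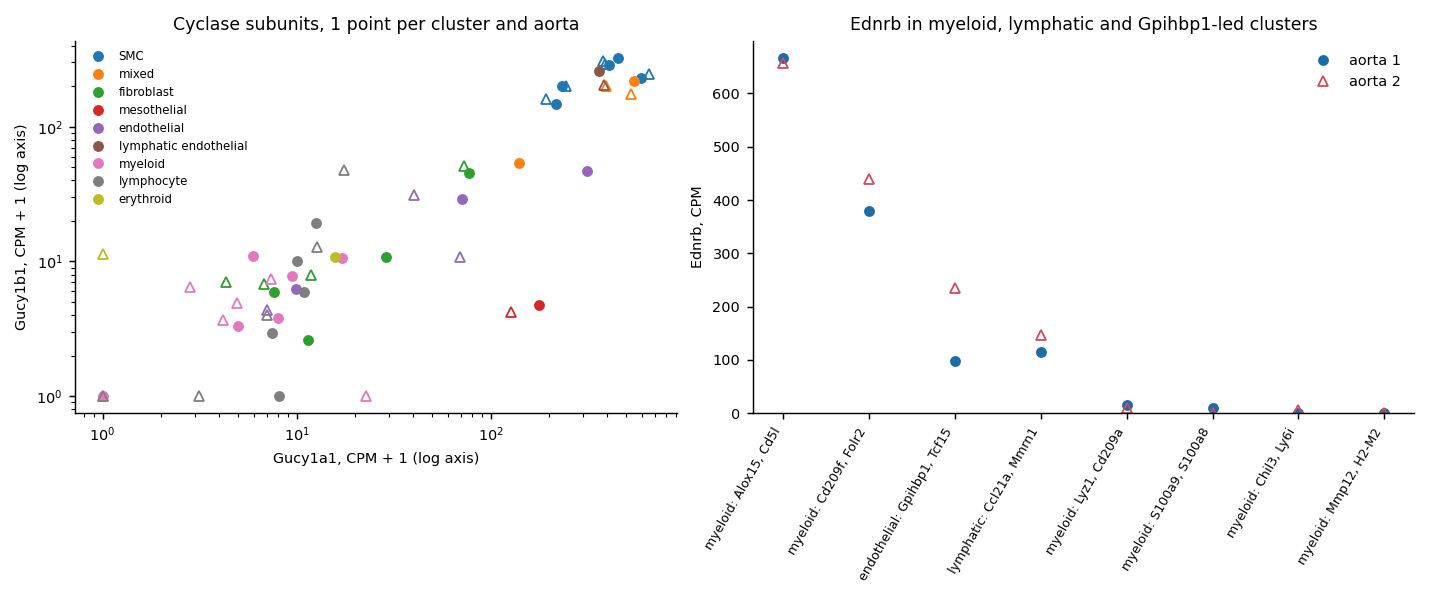
Left, *Gucy1b1* against *Gucy1a1* (CPM + 1, log axes), 1 point for each cluster and aorta, coloured by cell type, with aorta 1 filled and aorta 2 open; the mesothelial points lie below the other points of similar *Gucy1a1*. Right, *Ednrb* in CPM by cluster, highest in the myeloid cells led by *Alox15* (666 and 657 CPM) and at 0 and 0 in those led by *Mmp12*.

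*Prkg1* (ENSMUSG00000052920, chromosome 19, 30564489 to 31765033, minus strand), the cyclic GMP-dependent kinase gene, was at 62.9 and 62.1 CPM in SMCs, 36.4 and 29.7 in mesothelial cells, 23.9 and 21.0 in fibroblasts and 10.6 and 7.96 in endothelial cells. Lymphocytes held 2.69 and 1.11 CPM. The order of SMCs, mesothelial cells, fibroblasts and endothelial cells was the same in both aortas with no overlap. Lymphatic endothelial cells, with 3 and 6 UMIs (18.0 and 23.6 CPM), overlapped with fibroblasts (adjusted p 0.624, edgeR). Mesothelial cells were below SMCs (log2 fold change −1.12, SE 0.165, adjusted p 2.86e-06, edgeR), and SMCs exceeded fibroblasts by 1.61 (SE 0.126, adjusted p 3.39e-11) and endothelial cells by 2.93 (SE 0.182, adjusted p 3.6e-13, edgeR). Mesothelial cells and fibroblasts lay close together (0.49, SE 0.188, adjusted p 0.0429, edgeR), and this call was lost under 9 of 11 alternatives. The fibroblast level of the kinase gene was 38.0% and 33.9% of the SMC level, above the highest SMC marker (11.2% and 10.4%).

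Counted over the main comparisons, all 10 genes differed between SMCs and endothelial cells, where 51.9% of the 14009 genes tested did. SMCs were higher for 7 (*Ednra*, *Agtr1a*, *Ptger3*, *Gucy1a1*, *Gucy1b1*, *Prkg1* and *Ptgis*; 26.8% of all genes were higher in SMCs) and endothelial cells for 3 (*Edn1*, *Nos3* and *Ednrb*; 25.1%). Between SMCs and fibroblasts 8 differed (54.9% of all genes), 6 of them higher in SMCs (27.6%) and 2, *Edn1* and *Agtr1a*, higher in fibroblasts (27.3%). *Nos3* (0.53, adjusted p 0.273) and *Ednrb* (0.32, adjusted p 0.682) had few UMIs in both of these types. Between fibroblasts and endothelial cells 8 differed (44.2%), 4 in each direction (22.1% and 22.1%). Between mesothelial cells and fibroblasts 7 differed (37.6%), where *Gucy1a1*, *Prkg1*, *Ptgis* and *Ptger3* were higher in mesothelial cells (19.2%) and *Edn1*, *Ednra* and *Gucy1b1* in fibroblasts (18.3%). The comparisons share types, and the cell types were built from other genes of the same cells, so that the shares of all genes are the scale on which these counts are to be read. Leaving out markers and the genes on which cells had been clustered, the shares were 51.7%, 55.2%, 43.2% and 36.7% in the order of the comparisons above. Size factors of the DESeq2 kind shifted the median log2 fold change of all genes to −0.32 for SMCs against fibroblasts, −0.14 for SMCs against endothelial cells and 0.12 for fibroblasts against endothelial cells. They lowered the share of called genes that were higher in SMCs from 50.2% to 29.7% against fibroblasts and from 51.7% to 40.9% against endothelial cells, and raised the fibroblast share from 49.9% to 60.4%. With them 4 of the 10 genes were higher in SMCs than in fibroblasts, since *Ednra* and *Ptger3* lost their calls.

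**Figure D3:**
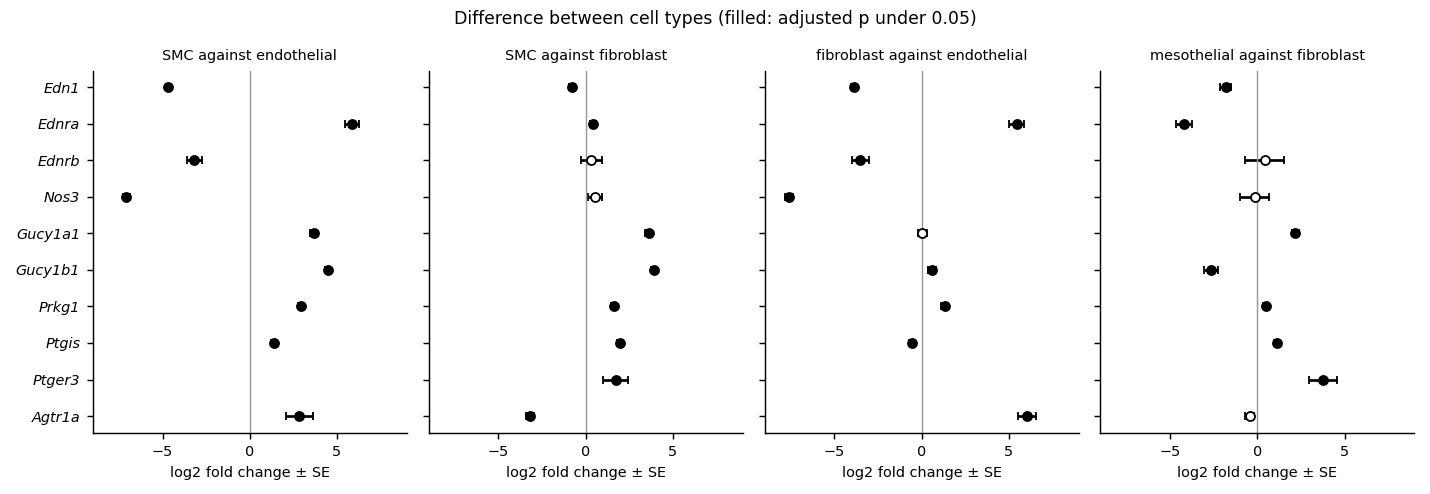
Log2 fold change (points) ± standard error (bars) of each gene in the main comparisons between cell types; filled points passed an adjusted p under 0.05 in edgeR. *Ptger3* against endothelial cells is not drawn because it had no UMI there. In SMCs against endothelial cells *Nos3* reaches −7.07 and *Gucy1b1* 4.49.

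The other pairs of types placed the immune and the rarer cells. From myeloid cells, 9 of the 10 genes differed in SMCs (67.5% of all genes), 8 in fibroblasts (64.8%), 7 in endothelial (54.3%), 7 in mesothelial (53%) and 7 in lymphatic endothelial cells (30.1%). From lymphocytes, 7 differed in SMCs (68.7%), 7 in fibroblasts (68.4%), 7 in mesothelial (58.6%), 6 in endothelial (59.4%), 6 in lymphatic endothelial (33%) and 3 in myeloid cells (49.9%). *Nos3* passed in none of the pairs of lymphocytes with SMCs, fibroblasts, mesothelial or myeloid cells, in which its levels were low throughout. Lymphatic endothelial cells differed from blood endothelial cells in 6 genes (14.5%), from SMCs in 6 (28.1%), from fibroblasts in 7 (21.8%) and from mesothelial cells in 6 (21.9%). Mesothelial cells differed from SMCs in 8 (45.6%) and from endothelial cells in 9 (37.6%). Erythroid cells, few in number, differed in 5 genes from SMCs (10.1%), in 3 each from lymphocytes (10.7%), mesothelial (7.68%), endothelial (6.65%) and lymphatic endothelial cells (5.4%), and in 1 each from fibroblasts (7.52%) and myeloid cells (5.7%).

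SMCs were not uniform in these genes. Among the 7 SMC subclusters with at least 20 cells in each aorta, 6 of the 6 genes that passed the filter on low counts differed (*Edn1*, *Ednra*, *Gucy1a1*, *Gucy1b1*, *Prkg1* and *Ptgis*), as did 51.6% of 9414 genes. *Nos3*, *Ednrb*, *Agtr1a* and *Ptger3* were too low to be tested. *Ednra* was the most uneven. SMCs led by *Adamtsl1* and *Hhip*, which also have *Dlx6* and *Msx2* among their leading genes, held 128 and 86.4 CPM, those led by *Nrn1* and *Scin* 119 and 60.5, and those led by *Gm37800* and *Gprc5c*, with *Pln* and *Notch3*, 49.0 and 38.0 CPM. SMCs led by *Hand2os1* and *Tnnt2* held 4.42 and 5.91 CPM and those led by *Hoxa7* and *Tnc* 2.56 and 2.51. The receptor transcript was thus concentrated in 3 subclusters, whose levels in both aortas lay above those of all the others (adjusted p over subclusters 1.79e-14, edgeR). The *Adamtsl1* subcluster held 406 of 548 and 252 of 316 of the *Ednra* UMIs of SMCs.

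The other genes had other patterns. *Gucy1a1* was highest in the *Gm37800* subcluster with 666 and 718 CPM, followed by the *Hand2os1* subcluster with 523 and 436 CPM, and the *Ednra*-rich *Adamtsl1* subcluster held 197 and 187 CPM (adjusted p 5.96e-11, edgeR). *Gucy1b1* was highest in the *Hand2os1* subcluster, 340.4 and 339 CPM, and was at 141 and 158 in the *Adamtsl1* subcluster (adjusted p 4.27e-10). *Prkg1* was at 111 and 101 CPM in the *Gm37800* subcluster, at 108 and 139.7 in the *Nrn1* subcluster and at 35.2 and 40.4 in the *Adamtsl1* subcluster (adjusted p 2.06e-07). *Ptgis* was highest in the *Hoxa7* subcluster with 1102 and 1187 CPM and stood at 619 and 684 in the *Adamtsl1* subcluster (adjusted p 1.13e-07, edgeR). The *Adamtsl1* subcluster thus combined the highest *Ednra* level with levels of the cyclase subunits, the kinase and *Ptgis* that were among the lowest of the 7 subclusters. The subclusters led by *Cyb5r3* and by *Adam33* had median depths of 1757 and 1858 UMIs per cell, against 5244 to 9966.5 in the other 5. The same 6 genes differed without them, and *Ptger3* and *Agtr1a* then passed the filter, of which *Ptger3* differed (adjusted p 0.00835, edgeR) and *Agtr1a* did not pass the test (adjusted p 0.15, edgeR). The *Ptger3* call rests on 12 and 8 UMIs in the *Hoxa7* subcluster and at most 5 in any other in either aorta, and it adds little to those counts. *Edn1* (adjusted p 0.00858, edgeR) ranged from 0 to 51.2 CPM over SMC subclusters and the aortas did not give the same order.

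**Figure D4:**
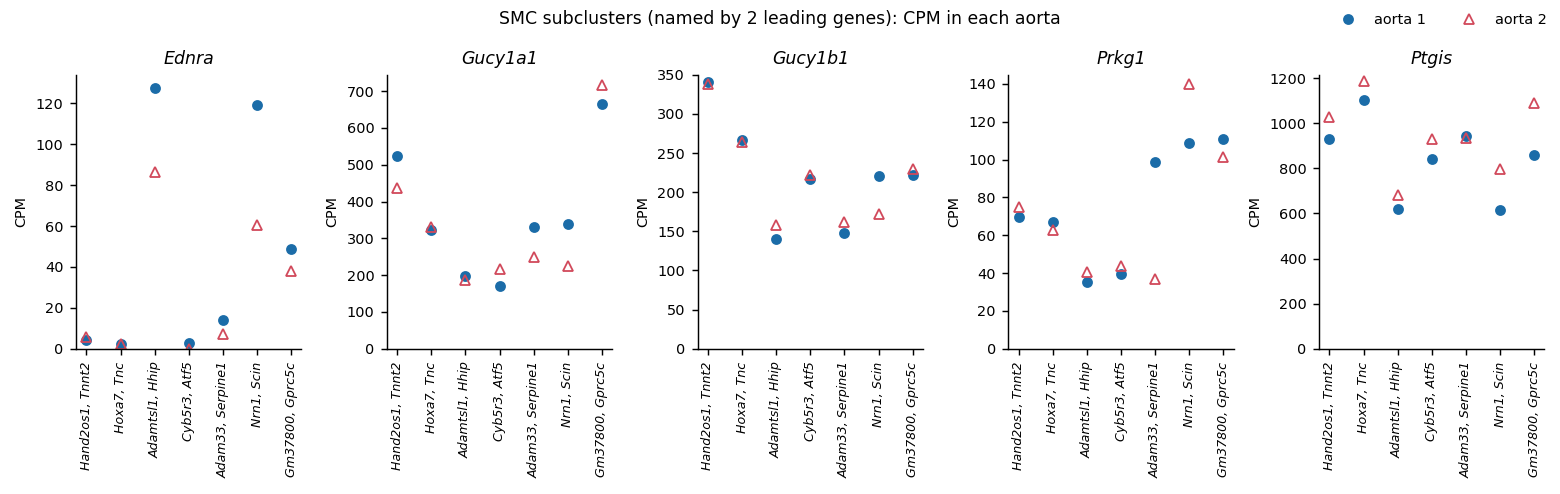
CPM of *Ednra*, *Gucy1a1*, *Gucy1b1*, *Prkg1* and *Ptgis* in the 7 tested SMC subclusters, each named by 2 leading genes, with aorta 1 as filled circles and aorta 2 as open triangles. *Ednra* stands out in 3 subclusters (128 and 86.4, 119 and 60.5, 49.0 and 38.0 CPM), and *Gucy1a1* in the one led by *Gm37800* (666 and 718 CPM).

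Endothelial cells differed in the signals they make. Among 6 endothelial subclusters all 6 genes that passed the filter differed (*Edn1*, *Ednrb*, *Nos3*, *Gucy1a1*, *Gucy1b1* and *Ptgis*), as did 25.1% of 7550 genes. *Ednrb* passed the filter only through the *Gpihbp1* cells, where it was high (12 and 24 UMIs), so that its call restates that level. *Edn1* was at 754 and 925 CPM in cells led by *Adra2a* and *Coch*, 816 and 839 in cells led by *Sfrp2* and *Ahsg*, 349 and 265 in cells led by *Eps8l2* and *Jag2*, and 114 and 144 in the largest subcluster, led by *Nkx2-3* and *Vegfa*. It fell to 30.6 and 106 CPM in cells led by *Fxyd6* and *Mal* and to 31.5 and 71.7 in the *Gpihbp1* cells. The first 3 of these subclusters stood above the last 3 in both aortas (adjusted p 1.55e-16, edgeR). *Nos3* was less uneven, from 186 to 449.5 CPM outside the *Gpihbp1* cells, and it was lowest there in the *Edn1*-rich *Sfrp2* subcluster, at 193 and 186 CPM (adjusted p 1.8e-05). *Ptgis* was at 300.4 to 520.1 CPM in 5 subclusters and at 39.4 and 0 CPM (5 and 0 UMIs) in the *Gpihbp1* cells (adjusted p 3.5e-10, edgeR). The cyclase subunits were found in the *Eps8l2* subcluster, at 163 and 136 CPM for *Gucy1a1* and 65.4 and 122 CPM for *Gucy1b1*, and in the *Gpihbp1* cells, at 362 and 71.7 CPM for *Gucy1a1* (46 and 7 UMIs) and 47.2 and 10.2 CPM for *Gucy1b1* (6 and 1 UMIs). The other 4 subclusters held at most 15.5 CPM of *Gucy1a1* and 7.65 CPM of *Gucy1b1*, and *Gucy1a1* is itself among the 10 leading genes of the *Eps8l2* subcluster, as *Edn1* is of the *Adra2a* subcluster. With 50 or more cells required in each aorta, the *Gpihbp1* cells dropped out, *Ednrb* was too low to be tested and the adjusted p of *Ptgis* was 0.0147 (edgeR).

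**Figure D5:**
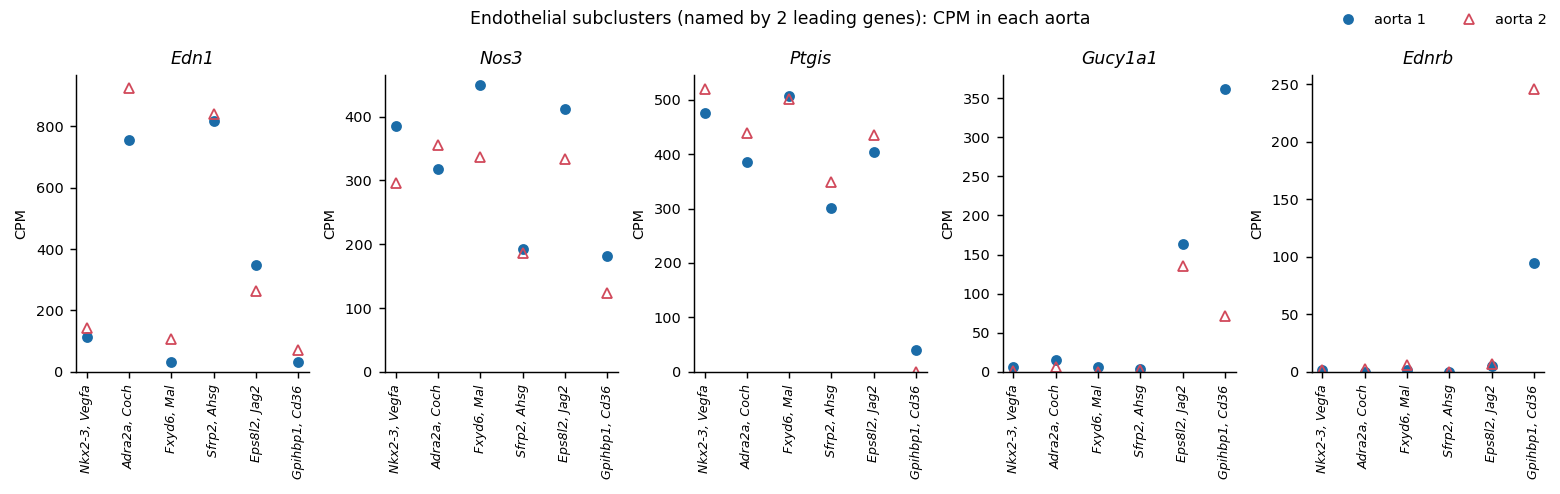
CPM of *Edn1*, *Nos3*, *Ptgis*, *Gucy1a1* and *Ednrb* in the 6 tested endothelial subclusters, each named by 2 leading genes, with aorta 1 as filled circles and aorta 2 as open triangles. *Edn1* is highest in the *Adra2a* and *Sfrp2* subclusters (754 and 925, 816 and 839 CPM), and *Ednrb* is seen in the *Gpihbp1* cells (94.5 and 246 CPM).

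In fibroblasts 7 of the 7 genes that passed the filter differed among 7 subclusters, as did 32.7% of 10123 genes. *Agtr1a* was highest in the *Pla1a* and *Dact2* subcluster that also led in *Edn1*, at 53.1 and 44.5 CPM, and was at 7.47 and 6.40 CPM in the one led by *Lamc3* and *Cytl1* (adjusted p 3.32e-07, edgeR). *Ednra* was at 8.53 and 9.25 CPM in the *Pla1a* subcluster and at 39.8 and 46.4 in the *Lamc3* subcluster (adjusted p 2.84e-06). These subclusters thus stood in opposite order for the receptors of angiotensin and endothelin, whereas the one led by *Hhip* was high in both, with 36.0 and 33.2 CPM of *Agtr1a* and 39.1 and 35.9 CPM of *Ednra*. *Gucy1a1* (105 and 106 CPM), *Gucy1b1* (54.1 and 65.6 CPM) and *Prkg1* (39.8 and 43.2 CPM) were high in the *Lamc3* subcluster, and *Gucy1a1* was at 3.94 and 1.16 CPM in the *Pla1a* subcluster (adjusted p 2.7e-13, edgeR). A fibroblast subcluster of 46 and 38 cells led by *Myh11*, *Cnn1* and the eGFP reporter, with a median of 2272 UMIs per cell, held 80.3 and 73.6 CPM of *Gucy1a1*; SMC transcripts moved with the cyclase there, and their part in it was not tested. The same 7 genes differed without that subcluster.

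Cells thinned to 1000 UMIs were compared between lymphocytes and the type that gave the largest share of a gene's UMIs. That type was chosen from the same data, so that a larger share there was nearly fixed in advance and is a description only. The share with a UMI was larger than in lymphocytes in both aortas for every gene but *Ptger3*. For *Ptger3* that type was SMCs, with 22 of 34 and 9 of 22 UMIs. *Ptgis* was found in 55.0% and 58.5% of SMCs (1.77% and 1.65% of lymphocytes), *Gucy1a1* in 29.3% and 24.5% (0.644% and 0.551%) and *Gucy1b1* in 20.4% and 19.8% (0.161% and 0.275%). *Nos3* was found in 26.8% and 27.7% of endothelial cells (0.161% and 0.275%) and *Ednrb* in 18.9% and 19.7% of myeloid cells (0.161% and 0.275%). The receptors *Ednra* (3.24% and 2.23% of SMCs, 0.322% and 0% of lymphocytes) and *Agtr1a* (2.84% and 2.64% of fibroblasts, 0.161% and 0.275% of lymphocytes) were rare per cell. Without thinning the shares were 90.3% and 92.4% for *Ptgis*, 65.2% and 56.8% for *Nos3*, 13.9% and 11.8% for *Ednra* and 12.3% and 13.5% for *Agtr1a*, at medians of 7710 and 7487 UMIs in SMCs and 5821 and 5583 in fibroblasts.

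Over 28 clusters in both aortas (56 sums), the genes with the highest Pearson correlation of log2(CPM + 1) to each member were taken from 14782 genes as a description. The cyclase genes were each other's nearest gene (r = 0.868). *Nos3* was nearest to *Mmrn2* (0.914), *Ccm2l* and *Arhgef15*, and *Edn1* to *Clec14a* (0.768), *Nos3* (0.751) and *Bmp6*. *Ednra* was nearest to *Vstm4* (0.873), *Prrx2* and *Sobp*, and *Ednrb* to *Lyve1* (0.810), *Cyp2ab1* and *Stard8*. *Gucy1a1* was next nearest to *Filip1* and *Msrb3*, *Gucy1b1* to *Ppp1r14a* and *Dstn*, and *Prkg1* was nearest to *Igfbp7* (0.877), *Fam13c* and *Auts2*. *Agtr1a* was nearest to *Dnah7b* (0.898), *Plcxd3* and *Gfpt2*, *Ptgis* to *Nupr1* (0.873), *Bmpr1a* and *Cpq*, and the sparse *Ptger3* to *Il17re* (0.717), *4932438H23Rik* and *Kcnq5*. The sums of 1 aorta share a library, and depth differs between clusters.

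The members belong to a wider list of 104 vasomotor genes, 94 beside the 10, of which 86 passed the filter. Between SMCs and endothelial cells 32 of the 86 were higher in SMCs (26.8% of all genes) and 29 in endothelial cells (25.1%), with a median log2 fold change of 0.17 (0 over all genes, and 0 when genes without a UMI in a type are set to the bound that 3 UMIs give). Without the 10 genes described above, which are part of the list, the counts were 25 and 26 of 76 (median 0.09). In the endothelin system *Ece1*, the converting enzyme that releases endothelin-1, was at 887 and 983 CPM in endothelial cells and 40.6 and 36.8 in SMCs (−4.38, adjusted p 2.56e-19, edgeR), as was *Edn1* itself. Around nitric oxide, *Gch1*, which starts the synthesis of the cofactor of the synthase, was at 36.4 and 36.7 CPM in endothelial cells and 1.26 and 1.98 in SMCs (−4.31), and *Ddah1*, which breaks down inhibitors of the synthase, at 27.5 and 38.9 against 0.181 and 0.172 CPM (−7.11). On the side of cyclic GMP, *Mrvi1*, the target of the kinase at the calcium store, was at 268 and 260.2 CPM in SMCs and 4.64 and 3.54 in endothelial cells (6.18), and *Pde5a*, which degrades cyclic GMP, at 183 and 216 against 7.62 and 2.65 CPM (5.38). *Ddah2* (−1.02) and *Pde1a* (3.37) also differed. The adjusted p-values of these 6 genes (edgeR) ranged from 2.2e-19 to 1.78e-07.

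Of the 17 prostanoid genes tested in the same comparison, 4, *Ptgis* and *Ptger3* among them, were higher in SMCs (26.8% of all genes). Endothelial cells were higher for 4 (25.1%), and 9 were not called. *Ptgs1*, the cyclooxygenase upstream of *Ptgis*, was at 237 and 230.0 CPM in endothelial cells and 2.35 and 1.21 in SMCs (−6.74, adjusted p 2.6e-19), and the prostaglandin transporter *Slco2a1* (−6.86) and the EP4 receptor gene *Ptger4* (−6.86) went with it. The thromboxane receptor gene *Tbxa2r* was higher in SMCs, at 44.0 and 49.0 against 6.29 and 3.10 CPM (3.44, adjusted p 9.03e-12, edgeR). *Ace*, which makes angiotensin II, was at 683 and 784 CPM in endothelial cells and 59.6 and 57.3 in SMCs (−3.44, adjusted p 5.21e-17). Among genes of other receptors, their partners and G protein coupling, *Ramp1* (6.67) and *Rgs5* (6.66), a brake on receptor signaling, were higher in SMCs. *Ramp2* (−8.55) and *Adra2a* (−8.73) were higher in endothelial cells.

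Between SMCs and fibroblasts 36 of the 86 genes were higher in SMCs (27.6% of all genes) and 28 in fibroblasts (27.3%; median 0.09, and 0.09 with such genes at their bound). Without the 10 genes the counts were 30 and 26 of 76, and the median turned to −0.14. In the prostanoid group 4 of the 17 tested genes, *Ptgis* and *Ptger3* among them, were higher in SMCs and 6 in fibroblasts. *Ptgir*, the prostacyclin receptor gene, was at 18.4 and 13.0 CPM in fibroblasts and at 0.602 and 0.431 in SMCs (−4.69, adjusted p 3.3e-12, edgeR), so that the receptor was low in the cells where *Ptgis* was highest. *Ptgfr* (−7.07), *Ptgs1* (−5.38), *Ace* (−2.24), *Ece1* (−1.29) and *Ece2* (−1.47) were also higher in fibroblasts. *Mrvi1* (4.57), *Pde5a* (1.92) and *Pde3a* (1.62) were higher in SMCs. Between fibroblasts and endothelial cells 34 were higher in fibroblasts (22.1% of all genes) and 31 in endothelial cells (22.1%; median 0.11, but −0.10 with such genes at their bound, so that its sign rests on them). Without the 10 genes the counts were 30 and 27 of 76 (median −0.0083). *Ace* was also lower in fibroblasts than in endothelial cells (−1.20, adjusted p 2.51e-08, edgeR), and *Ece2* had 129 and 104 UMIs in fibroblasts and none in endothelial cells.

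Between mesothelial cells and fibroblasts 20 genes were higher in mesothelial cells (19.2% of all genes) and 32 in fibroblasts (18.3%; median −0.16, and −0.10 with such genes at their bound), or 16 and 29 of 76 without the 10 genes (median −0.23). The natriuretic peptide receptor genes *Npr3* (154 and 144 CPM against 16.2 and 20.4, 2.95) and *Npr1* (165 and 166 against 43.3 and 50.6, 1.73) were higher in mesothelial cells. *Npr1* encodes a guanylyl cyclase in the membrane, which makes the same messenger as the soluble enzyme whose beta subunit was low in these cells. *Hpgd*, which inactivates prostaglandins, was at 971 and 1139 CPM against 16.0 and 14.6 (6.00, adjusted p 5.79e-20), *Slco2a1* at 241 and 356 against 3.31 and 3.62 (6.30), and *Ptgds* at 44.6 and 28.7 against 1.26 and 0.658 CPM (5.10). *Pde5a* was lower in mesothelial cells (−2.85, adjusted p 2.2e-09), as were *Ace* (−6.03), *Ece1* (−1.24), *Ptgir* (1 and 0 UMIs) and *Npr2* (−2.27, edgeR). *Ren1* was at 125 and 23.8 CPM in mesothelial cells and 15.7 and 7.89 in fibroblasts (2.65, adjusted p 6.19e-06, edgeR), and the aortas were far apart in this gene. *Nostrin* and *Ece2* had no UMI in mesothelial cells.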

How the data were processed

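Thoracic aortas of 2 wild-type GFPiSMC mice gave 1 droplet library each. The deposited files hold raw UMI counts per gene and cell, made by the authors with Cell Ranger 4.0.0 on mm10 with eGFP and tdTomato added. Per the labels, cells were sorted for viability. Cells with over 200 genes, 1000 to 25000 UMIs and under 10% mitochondrial UMIs were kept, and Scrublet removed 205 and 84 doublets. Clustering (scanpy 1.11.5, Leiden resolution 1, subclusters 0.6) left out the members and the pathway list. The rule scoring clusters against markers was set after cluster tables had been seen, and members and lists were chosen with earlier results of these data known. UMIs of each type in each aorta were summed (16 sums, 8 residual degrees of freedom) and tested with edgeR 4.0.16 (TMM, quasi-likelihood, Benjamini-Hochberg over 14009 genes, adjusted p under 0.05). Intervals and floors cover counting error only. Sums of 1 aorta share an animal, so the aorta numbers pair them. Deviations of paired types correlated at a median of 0.0256 over 28 pairs of types (−0.0707 to 0.126). All members were named. Of the pathway list, up to 3 genes per role and direction were eligible, those with the largest log2 fold change among genes with an adjusted p under 0.05, a change over 1 and 10 CPM or more in the higher type. Simulated sums (14009 genes) were drawn from 1 mean profile for all types and 1 dispersion for all genes, with 200 genes changed in SMCs. For SMCs against endothelial cells, 53.7% of changes of 1 and 90.2% of changes of 2 (log2) were recovered, with 1.40% false calls. In the real data 51.9% of genes were called in this comparison, so that these rates need not hold for the reported fits.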

Additional observations from a re-analysis of the deposited data

How the results depend on the processing

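Fits were repeated with RLE size factors, no low-count filter, the aorta as a block, only the compared types, DESeq2 1.42.0, cells of 5000 to 25000 UMIs, no UMI limits, doublets kept, members in the clustering and Leiden resolution 2, and, chosen after seeing the data, without subclusters led by another type or under 20 cells (for subcluster tests, without those of low UMI counts). The counts of genes called in both directions together stayed within 1.5 times of the values reported. By direction, the 3866 genes higher in SMCs than in fibroblasts became 2453 with RLE size factors and 2313 with DESeq2, and the 3828 lower genes became 5819 with RLE size factors. The 3102 genes higher in endothelial cells than in fibroblasts became 2041 with cells of 5000 to 25000 UMIs. With the aorta as a block, *Ptger3* in SMCs against fibroblasts had an adjusted p of 0.0526 (edgeR), and no other call of a member between cell types in the main comparisons changed. The members called ranged over 9 to 10 for SMCs against endothelial cells, 6 to 8 against fibroblasts, 6 to 9 for fibroblasts against endothelial cells and 5 to 7 for mesothelial cells against fibroblasts. Uncalled values changed sign for *Gucy1a1* in fibroblasts against endothelial cells with doublets kept (−0.17) and at Leiden resolution 2 (−0.014), and for *Nos3* in mesothelial cells against fibroblasts with doublets kept (0.64). The cause was not tested. *Gucy1b1* in fibroblasts against endothelial cells lost its call with cells of 5000 UMIs or more, with doublets kept and at resolution 2, and *Nos3* in SMCs against fibroblasts gained one with doublets kept (1.06, adjusted p 0.0176, edgeR). With 1 aorta left out there were no residual degrees of freedom, so that only values were computed. For *Gucy1a1* in fibroblasts against endothelial cells the sign differed between the aortas (−0.12 in aorta 1 and 0.46 in aorta 2), and aorta 2 alone gave 0.39 for *Prkg1* in mesothelial cells against fibroblasts, on the log2 scale.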
